A study of Homo sapiens with 24 samples.

Results

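Genes for the proteins of the mitochondrial ribosome were taken as the gene symbols that start with MRPL or MRPS followed by a digit, with symbols that end in P and a number left out as pseudogenes. This rule gave 76 genes of 23106 symbols counted, of which 47 were MRPL (large subunit) and 29 were MRPS (small subunit). It set aside 3 pseudogenes, MRPL42P5, MRPL45P2 and MRPS31P5. Of the 76 genes, 75 could be tested in each cell line. The exception was MRPS18B, which had 0 counts in all 24 libraries and is not part of any comparison below. Whether the gene models used for counting could give it a count was not tested, so no level is given for it.

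The mitochondrial ribosome translates the mRNAs of the mitochondrial genome, which encode core subunits of the oxidative phosphorylation complexes. Its RNAs are transcribed from mitochondrial DNA, whereas all its proteins are encoded in the nucleus, made in the cytosol and imported. The small subunit binds and decodes the mRNA, the large subunit holds the peptidyl transferase center, and each contains proteins inherited from the bacterial ribosome together with proteins found only in mitochondria.

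RNA-seq counts of polyadenylated RNA came from 4 human cancer cell lines: lung A549 cells, colorectal HCT116 cells, prostate PC3 cells and breast T47D cells. Each line was kept in 21% oxygen (normoxia) or in 0.5% oxygen (hypoxia) for 16 h, with 3 replicate libraries in each of the 8 groups. The labels give no genetic change or drug in any group. Each line is a single established culture, and media differed between lines (Ham's F12K for A549 and PC3, McCoy's for HCT116, DMEM for T47D), so that line and medium cannot be told apart except between A549 and PC3 cells. The sources do not say whether replicates were separate cultures, so the p values measure the spread between these libraries, which may be technical.

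The promoters shown here are the windows from 250 bases before to 50 bases after the canonical start of transcription, read 5′ to 3′ on the strand of the gene from GRCh37, the build of the counts. They were chosen for 2 genes that were downregulated in all 4 lines (MRPL46 and MRPS10), 1 gene that was called in no line (MRPL37) and the 1 gene that was upregulated in any line (MRPS6). The windows are chr15:89010570-89010869 (minus strand) for MRPL46, chr6:42185550-42185849 (minus strand) for MRPS10, chr1:54665590-54665889 (plus strand) for MRPL37 and chr21:35445628-35445927 (plus strand) for MRPS6. Capitals mark matches to the ETS motif CCGGAAG, the core bound by GABP, and to the YY1 motif AAGATGGCG, each searched on both strands.
MRPL46: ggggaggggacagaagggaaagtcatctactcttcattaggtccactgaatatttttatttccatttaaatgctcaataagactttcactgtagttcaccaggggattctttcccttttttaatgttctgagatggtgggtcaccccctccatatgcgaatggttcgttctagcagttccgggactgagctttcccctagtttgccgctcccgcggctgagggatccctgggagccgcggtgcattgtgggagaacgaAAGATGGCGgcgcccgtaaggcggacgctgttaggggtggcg
MRPS10: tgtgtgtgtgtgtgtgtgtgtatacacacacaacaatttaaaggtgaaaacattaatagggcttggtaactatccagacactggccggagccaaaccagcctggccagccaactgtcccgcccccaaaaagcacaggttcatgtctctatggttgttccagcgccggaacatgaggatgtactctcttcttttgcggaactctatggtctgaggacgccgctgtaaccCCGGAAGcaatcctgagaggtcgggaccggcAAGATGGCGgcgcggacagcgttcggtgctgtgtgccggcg
MRPL37: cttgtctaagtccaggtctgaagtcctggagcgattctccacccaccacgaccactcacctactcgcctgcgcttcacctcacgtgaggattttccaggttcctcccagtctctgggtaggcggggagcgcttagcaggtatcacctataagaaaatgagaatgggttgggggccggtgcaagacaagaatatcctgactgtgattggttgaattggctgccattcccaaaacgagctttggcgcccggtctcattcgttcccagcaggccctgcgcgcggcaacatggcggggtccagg
MRPS6: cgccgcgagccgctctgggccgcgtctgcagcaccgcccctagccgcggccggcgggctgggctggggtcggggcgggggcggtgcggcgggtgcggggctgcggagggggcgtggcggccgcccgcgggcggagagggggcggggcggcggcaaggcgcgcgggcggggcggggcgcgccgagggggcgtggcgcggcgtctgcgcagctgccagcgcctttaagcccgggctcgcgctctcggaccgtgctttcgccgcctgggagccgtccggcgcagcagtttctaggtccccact
The window of MRPL46 holds 1 YY1 match and that of MRPS10 holds 1 ETS and 1 YY1 match, whereas those of MRPL37 and MRPS6 hold neither. These windows were chosen for their genes and do not stand for the groups. The ETS motif was in 42.9% of the 14 promoters of genes downregulated in all 4 lines and in 50% of the 10 promoters of genes called in no line, and the YY1 motif in 42.9% and 20%. Over the 75 genes tested, 41.3% of promoters held the ETS motif, against 20.5% of the promoters of the 11364 genes that were tested in all 4 lines and had an annotated start. The YY1 motif was found in 16% of the 75 promoters and in 4.68% of the promoters of those genes. The NRF1 consensus motif was in 10.7% and 12.8%, and the E-box CACGTG in 9.33% and 10.5%. A HIF core motif, ACGTG or GCGTG, was in 69.3% and 65.9% of promoters, the first of these being contained in the E-box. MRPL and MRPS promoters held the ETS motif in 40.4% and 42.9% of cases and the YY1 motif in 17% and 14.3%. A match to letters is a description and does not show that a factor binds.

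Libraries held between 22698584 and 62850747 counts, and the genes described here had between 307 and 32268 counts in a library. All 5 hypoxia markers examined, CA9, NDRG1, EGLN3, ANKRD37 and VEGFA, were upregulated in all 4 lines. ALDH1A1 and AKR1B10 marked A549 cells and ESR1, PGR and GATA3 marked T47D cells, but the intestinal genes VIL1, CDH17 and LGALS4 were at or near 0 in HCT116 cells, so that they do not check that label. Hypoxic T47D replicate 3 stood apart for the genes described here, although CA9 was present in it at 32.1 CPM, against 44.5 and 35.7 CPM in the other hypoxic libraries and 0 in the 3 normoxic ones. CPM is a count scaled to a common library size after TMM, and a bulk level cannot tell fewer expressing cells from less RNA per cell.

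Most of the 75 genes were downregulated in hypoxia in A549, HCT116 and PC3 cells, and a smaller number were in T47D cells. A call required a fold change over 1.2 with a Benjamini-Hochberg adjusted p under 0.05 in edgeR's quasi-likelihood test. In A549 cells 55 were downregulated, a line in which 17.8% of all genes tested were. In HCT116 cells 57 were downregulated (27.0% of all genes), in PC3 cells 43 (15.7% of all genes) and in T47D cells 14 (6.69% of all genes). MRPS6 was the only upregulated gene, in A549 and PC3 cells, where 17.6% and 16.6% of all genes were upregulated. None of the 75 was upregulated in HCT116 or T47D cells with edgeR, where 23.3% and 6.55% of all genes were. At an unadjusted p under 0.05 the numbers with an increase were 1 (MRPS2) and 0, and DESeq2 called the same 1 and 0.

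The direction was shared more widely than the calls. The log2 fold change was below 0 for 70 genes in A549, 67 in HCT116, 72 in PC3 and 64 in T47D cells, against 51.0%, 51.1%, 51.1% and 51.1% of all genes. All 3 hypoxic libraries lay below all 3 normoxic libraries for 58 genes in A549 cells (24.8% of all genes), 62 in HCT116 cells (32.1% of all genes), 59 in PC3 cells (25.6% of all genes) and 23 in T47D cells (15.8% of all genes).

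In T47D cells the number of calls depended on hypoxic replicate 3. The median log2 ratio of the 75 genes to the normoxic mean was -0.71, -0.83 and -0.03 in its 3 hypoxic libraries. Without replicate 3 of hypoxia 51 of the 75 genes were downregulated (12.2% of all genes), but without hypoxic replicates 1 or 2 the numbers were 2 and 3 (2.54% and 3.44% of all genes), and without normoxic replicates 1 or 2 they were 0 and 1 (0.133% and 0.597% of all genes). These 4 shares of the 75 genes were near those of all genes. Without normoxic replicate 1, 18 genes still had a decrease at an unadjusted p under 0.05, and DESeq2 was not run without single libraries. In PC3 cells the number fell from 43 to 8, 17 and 23 without hypoxic replicates 1, 2 and 3, as the share of all genes fell to 6.40%, 6.46% and 9.67%. In A549 and HCT116 cells leaving out 1 library gave 37 to 57 and 49 to 57 downregulated genes, against 10.4% to 18.6% and 19.6% to 24.2% of all genes.

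**Figure D1:**
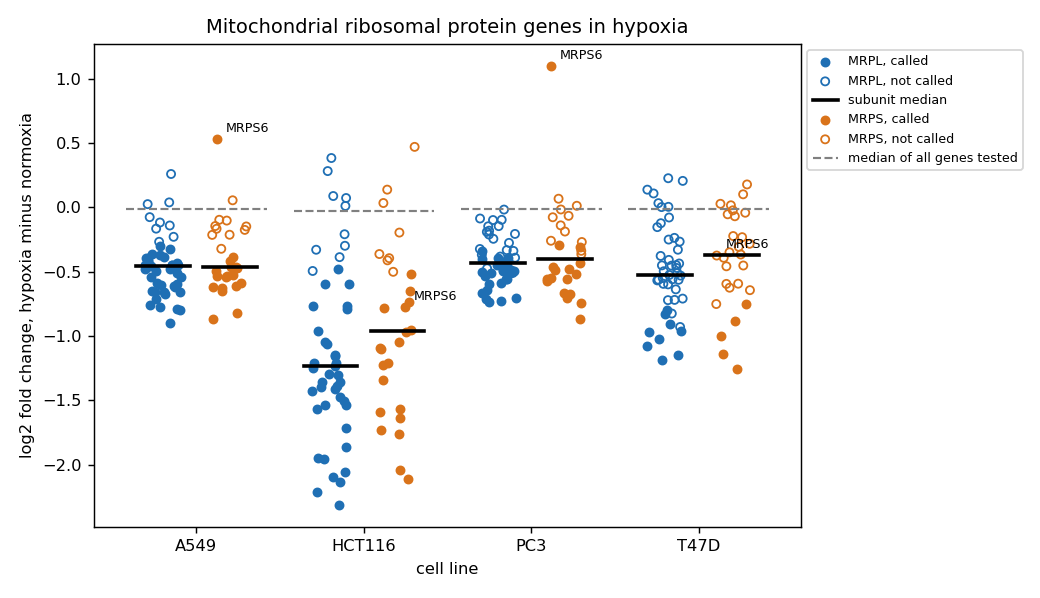
Log2 fold change in hypoxia (y axis) of each of the 47 MRPL and 28 MRPS genes tested, by cell line (x axis), where filled points were called, black bars are subunit medians and dashed lines are medians of all genes tested, with MRPS6 named. Both subunit medians lie below the dashed line in each line, and MRPS6 lies above it in A549 and PC3 cells.

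The large and small subunits were then compared. Of the 47 MRPL genes, 38 were downregulated in A549, 37 in HCT116, 27 in PC3 and 9 in T47D cells. Of the 28 MRPS genes tested, 17, 20, 16 and 5 were downregulated in the same order. The median log2 fold change of MRPL genes was -0.46 in A549, -1.24 in HCT116, -0.43 in PC3 and -0.53 in T47D cells, and that of MRPS genes was -0.46, -0.96, -0.40 and -0.37. For all genes tested the median was -0.01, -0.03, -0.01 and -0.01.

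The difference between the subunit medians was smaller than the change that both showed. Taken in each hypoxic library against the normoxic mean, the MRPL median minus the MRPS median was -0.04 ± 0.05 (SD, n = 3) in A549 cells and -0.03 ± 0.04 (SD, n = 3) in PC3 cells, so that its size did not exceed its spread. In HCT116 cells the MRPL median was lower in all 3 hypoxic libraries, by -0.27 ± 0.08 (SD, n = 3), and in T47D cells it was lower in all 3 by -0.12 ± 0.05 (SD, n = 3). The 3 values of a line share the same normoxic mean, so they are not independent. The SD of such differences, here and below, leaves out the spread between normoxic libraries. Since members of a list are not replicates, no test was made of the differences between subunit medians.

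The split by symbol is not quite the split by structure. MRPS30 and MRPS18A sit in the large subunit despite their names, and MRPS36 is a component of the 2-oxoglutarate dehydrogenase complex and no part of the ribosome. With these genes placed by structure the large-minus-small difference was -0.18 ± 0.11 (SD, n = 3) in HCT116 cells and -0.07 ± 0.06 (SD, n = 3) in T47D cells. In the 3 hypoxic T47D libraries it was 0.0029, -0.11 and -0.1, so by structure the large subunit was not lower in all 3. Proteins found only in mitochondria differed from those with bacterial counterparts by 0.08 ± 0.03 (SD, n = 3) in A549 cells, and by 0.04 ± 0.13, 0.05 ± 0.05 and 0.02 ± 0.03 (SD, n = 3 each) in HCT116, PC3 and T47D cells.

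Both subunits were also summed on the CPM scale, on which the most abundant genes weigh most. The 47 MRPL genes summed to 3518, 3651 and 3314 CPM in the normoxic A549 libraries and to 2355, 2627 and 2873 CPM in the hypoxic ones, without overlap. In HCT116 cells the sums were 5747, 8077 and 5334 CPM in normoxia and 3456, 2753 and 2864 CPM in hypoxia, the second normoxic library being the highest of all 24. The 28 MRPS genes summed to 3084, 4304 and 2868 CPM in normoxic and 1848, 1548 and 1622 CPM in hypoxic HCT116 libraries. Without that second normoxic library the HCT116 medians were -0.96 for MRPL and -0.74 for MRPS genes, and 54 genes were downregulated. In T47D cells the sums overlapped between oxygen states for both subunits, as hypoxic replicate 3 held 4405 CPM for MRPL and 2618 CPM for MRPS genes.

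**Figure D2:**
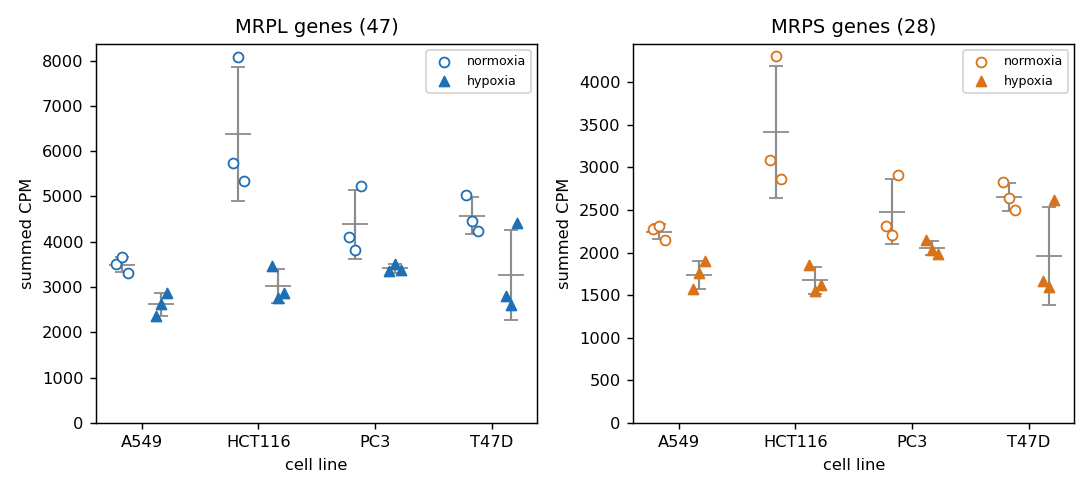
Summed CPM (y axis) of the 47 MRPL genes (left) and 28 MRPS genes (right) in each library by cell line (x axis), with open circles for normoxia, filled triangles for hypoxia, and gray bars for the mean and SD of 3 libraries. Hypoxic libraries lie below normoxic ones in A549, HCT116 and PC3 cells, and hypoxic T47D replicate 3, at 4405 and 2618 CPM, lies within the normoxic range.

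A core of 14 genes was downregulated in all 4 lines, which held for 3.36% of the 11734 genes tested in all 4. These were 9 of the large subunit (MRPL1, MRPL15, MRPL18, MRPL32, MRPL33, MRPL36, MRPL42, MRPL46 and MRPL50) and 5 of the small subunit (MRPS10, MRPS15, MRPS18C, MRPS23 and MRPS33). They are the same 14 genes that were called in T47D cells, so the core rests on the T47D libraries discussed above. The core comes from fits without a replicate block. With the block in T47D cells, where replicates of the same number deviated together, MRPL3 and MRPL39 were called as well and would join the core. No label says that these samples were paired. Log2 fold changes of the 14 genes ranged from -0.90 to -0.42 in A549, -2.22 to -1.36 in HCT116, -0.87 to -0.45 in PC3 and -1.26 to -0.76 in T47D cells. The hypoxic libraries lay below the normoxic ones without overlap for all 14 in A549, HCT116 and PC3 cells, and for 12 in T47D cells. The 14 were chosen by calls from these same libraries, so this lack of overlap is no separate support. Over the 75 genes, MRPL genes downregulated in 0, 1, 2, 3 and 4 lines numbered 5, 6, 12, 15 and 9, and MRPS genes 5, 5, 6, 7 and 5.

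MRPL46, a large-subunit protein found only in mitochondria, had the largest decrease of the 75 genes in A549 cells. Its level was 44.8, 53.3 and 43.6 CPM in normoxic and 21.0, 27.2 and 27.9 CPM in hypoxic A549 libraries, with a log2 fold change of -0.90 ± 0.13 (SE, adjusted p = 0.000539). In HCT116 cells it was 63.7, 103.2 and 51.9 CPM in normoxia and 20.6, 11.5 and 15.0 CPM in hypoxia, a change of -2.22 ± 0.28 (SE, adjusted p = 0.00013). Thus each hypoxic library held less than each normoxic one in both lines. In PC3 cells the levels were 24.3, 22.0 and 37.1 CPM and 16.2, 18.0 and 16.5 CPM (-0.71 ± 0.18, SE, adjusted p = 0.0148). In T47D cells they were 72.4, 81.6 and 54.9 CPM and 25.1, 23.3 and 46.0 CPM (-1.15 ± 0.27, SE, adjusted p = 0.0182), hypoxic replicate 3 being the highest of the hypoxic ones. MRPL46 starts 320 bases from MRPS11, a small-subunit gene on the opposite strand, and MRPS11 was also downregulated in A549 (-0.65), HCT116 (-1.21) and PC3 cells (-0.48), with -0.63 and no call in T47D cells.

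Starts arranged in this way were common among these genes. Of the 75 genes, 23 (30.7%) had a protein-coding gene starting within 1000 bases upstream on the other strand, against 14% of the 11114 protein-coding genes tested in all 4 lines. Partners moved in both directions. MITD1, opposite MRPL30, was downregulated in all 4 lines, whereas NCAPD2, opposite MRPL51, was upregulated in A549, HCT116 and T47D cells.

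MRPS23, a small-subunit protein found only in mitochondria, had the largest small-subunit decrease in HCT116 and PC3 cells. It went from 453.1, 740.0 and 353.1 CPM to 138.2, 101.6 and 118.8 CPM in HCT116 cells (-2.11 ± 0.28, SE, adjusted p = 0.00014). In PC3 cells it went from 118.4, 112.9 and 201.8 CPM to 67.3, 80.6 and 89.5 CPM (-0.87 ± 0.21, SE, adjusted p = 0.0127). The change was also called in A549 (-0.82) and T47D cells (-1.14). MRPS10, homologous to bacterial S10, had the largest decrease of all 75 genes in T47D cells, from 170.1, 164.9 and 120.8 CPM to 62.1, 54.3 and 74.5 CPM (-1.26 ± 0.22, SE, adjusted p = 0.00388), and here even hypoxic replicate 3 lay well below the normoxic ones.

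MRPL13, homologous to bacterial L13, had the largest decrease of all in HCT116 cells. Its level was 258.7, 451.7 and 206.5 CPM in normoxia and 69.3, 58.8 and 56.5 CPM in hypoxia (-2.31 ± 0.28, SE, adjusted p = 0.000101). It was downregulated in A549 (-0.76) and PC3 cells (-0.59), but in T47D cells the oxygen states overlapped and it was called with DESeq2 but not with edgeR (-0.93, adjusted p = 0.0521). MRPL33, homologous to bacterial L33, fell by 1.19 on the log2 scale in T47D cells, the largest large-subunit decrease there, and MRPL50, found only in mitochondria, had the largest in PC3 cells (-0.73). MRPL32 and MRPL36, homologous to bacterial L32 and L36, came next to MRPL46 in the large subunit in A549 cells with -0.79 each. MRPS18C, 1 of 3 human homologs of bacterial S18, had the largest small-subunit decrease in A549 cells (-0.87 ± 0.12, SE, adjusted p = 0.000356), with the limit that its exons overlap those of FAM175A on the other strand.

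**Figure D3:**
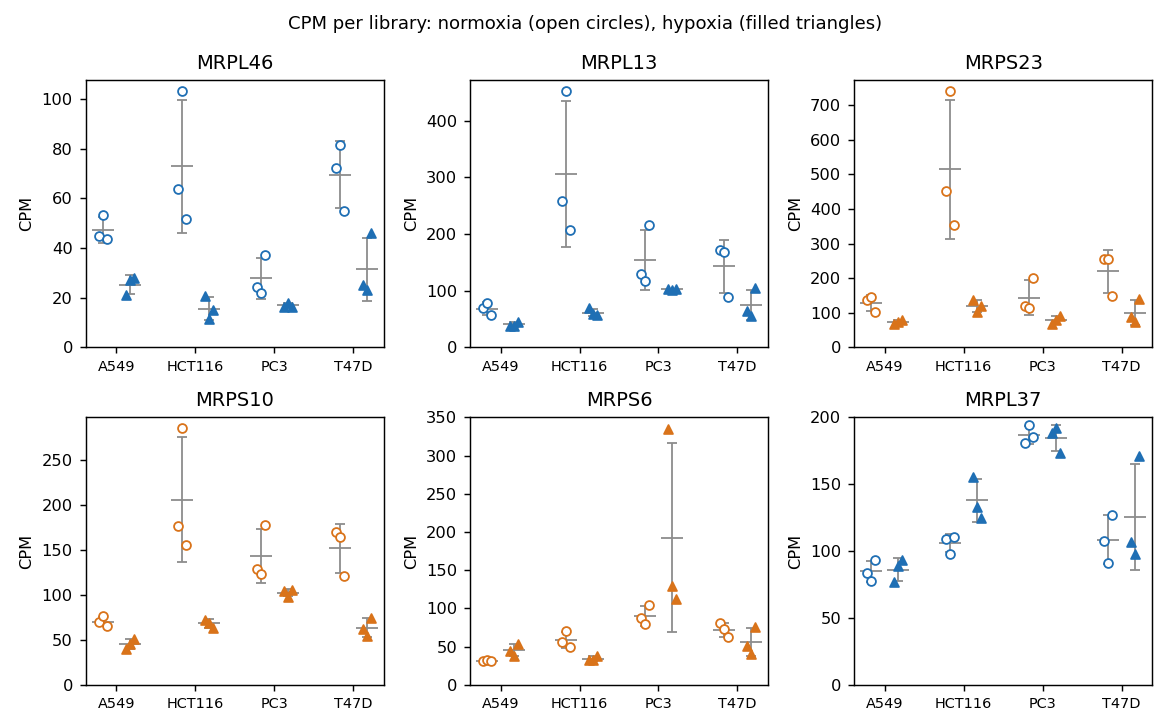
CPM (y axis) of MRPL46, MRPL13, MRPS23, MRPS10, MRPS6 and MRPL37 in each library by cell line (x axis), with open circles for normoxia, filled triangles for hypoxia, and gray bars for the mean and SD of 3 libraries. MRPL46, MRPL13, MRPS23 and MRPS10 are lower in hypoxia with the widest gap in HCT116 cells, MRPS6 is higher in A549 and PC3 cells, where 1 hypoxic library reached 335.1 CPM, and MRPL37 overlaps between states except in HCT116 cells.

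The remaining members of the core ranged over both subunits. MRPL1, homologous to bacterial L1 of the stalk at which spent tRNA leaves, went from 148.3, 225.3 and 109.6 CPM to 49.1, 33.2 and 42.8 CPM in HCT116 cells (-1.95 ± 0.27, SE, adjusted p = 0.00016), without overlap. It had -0.78, -0.67 and -0.96 in A549, PC3 and T47D cells, and after correction for GC content and transcript length it was called in none of the 4 lines. MRPL15 and MRPL18, homologous to bacterial L15 and L18, had -1.41 and -1.36 in HCT116 cells. MRPS15, homologous to bacterial S15, which binds the small-subunit RNA early in assembly, went from 187.2, 324.7 and 154.1 CPM to 67.1, 68.6 and 60.5 CPM in HCT116 cells (-1.76 ± 0.26, SE, adjusted p = 0.00022). In contrast to MRPL1, MRPS15 was downregulated in all 4 lines with the correction as well (-0.49, -1.19, -0.37 and -0.83). MRPS33, found only in mitochondria, had -0.42, -1.73, -0.75 and -0.89, and in T47D cells its oxygen states overlapped.

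Between the core and the uncalled genes lay 51 genes that were downregulated in some lines. The 22 that were downregulated in 3 lines were all called in A549, HCT116 and PC3 cells and not in T47D cells without the replicate block. In the large subunit these were MRPL3, MRPL13, MRPL16, MRPL20, MRPL21, MRPL22, MRPL24, MRPL27, MRPL30, MRPL35, MRPL39, MRPL40, MRPL47, MRPL51 and MRPL52, and in the small subunit MRPS7, MRPS11, MRPS21, MRPS22, MRPS28, MRPS31 and MRPS35. Their log2 fold changes in T47D cells ranged from -0.93 to -0.23 with a median of -0.54, so that none increased there. Of the 18 genes downregulated in 2 lines, 12 were called in A549 and HCT116 cells (MRPL9, MRPL11, MRPL14, MRPL34, MRPL41, MRPL43, MRPL44, MRPL48, MRPL49, MRPL54, MRPS12 and MRPS25). A further 4 were called in HCT116 and PC3 cells (MRPL53, MRPS16, MRPS17 and MRPS36) and 2 in A549 and PC3 cells (MRPL55 and MRPS9). Of the 11 genes downregulated in 1 line, 5 were called in HCT116 cells (MRPL17, MRPL45, MRPS6, MRPS14 and MRPS27), 5 in A549 cells (MRPL4, MRPL12, MRPL38, MRPS26 and MRPS30) and MRPL2 in PC3 cells. A call in 1 line and not in another is no test of a difference between them.

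At the other end, 10 genes were called in no line. Of all genes tested in the 4 lines, 29.5% were called in none. These 10 were MRPL10, MRPL19, MRPL23, MRPL28 and MRPL37 in the large subunit and MRPS2, MRPS5, MRPS18A, MRPS24 and MRPS34 in the small subunit. MRPL10 is homologous to bacterial L10, at the base of the stalk that recruits elongation factors, and MRPS2 and MRPS5 to bacterial S2 and S5. Their log2 fold changes ranged from -0.21 to 0.26 in A549, -0.41 to 0.47 in HCT116, -0.21 to 0.07 in PC3 and -0.41 to 0.23 in T47D cells. MRPL37, a large-subunit protein found only in mitochondria, had 83.4, 77.7 and 93.3 CPM in normoxic and 76.9, 88.6 and 93.2 CPM in hypoxic A549 libraries. In HCT116 cells its hypoxic libraries, at 155.8, 133.0 and 125.1 CPM, lay above the normoxic ones, at 108.9, 98.0 and 110.5 CPM, but the change was not called (0.38 ± 0.19, SE, adjusted p = 0.102). MRPS2 in HCT116 cells also had no overlap, with 84.5, 61.6 and 74.7 CPM in normoxia and 115.0, 94.5 and 96.1 CPM in hypoxia (0.47 ± 0.19, SE, adjusted p = 0.059), and it was called upregulated with DESeq2. A missing call does not show that these genes were unchanged.

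MRPS6, homologous to bacterial S6, was the exception in direction. In A549 cells its level rose from 30.6, 32.8 and 30.7 CPM to 44.1, 37.8 and 53.97 CPM (0.53 ± 0.13, SE, adjusted p = 0.00852). In PC3 cells it rose from 86.8, 79.0 and 104.0 CPM to 335.1, 129.9 and 112.7 CPM (1.10 ± 0.34, SE, adjusted p = 0.0349), the first hypoxic library standing far above the others. In HCT116 cells it fell instead, from 55.7, 70.8 and 49.7 CPM to 31.9, 33.1 and 37.8 CPM (-0.78 ± 0.20, SE, adjusted p = 0.00521), although with correction for GC content and transcript length the change was 0.02 and not called. In T47D cells the states overlapped, with 80.8, 73.7 and 62.5 CPM in normoxia and 51.2, 40.4 and 75.7 CPM in hypoxia (-0.38 ± 0.24, SE, adjusted p = 0.306). The difference between lines passed the interaction test (adjusted p = 0.00751).

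The PC3 call depended on single libraries. It was not made with DESeq2 (1.11). Without the first hypoxic PC3 library the log2 fold change was 0.43 and the gene was not called, and it was not called either without the first or the second normoxic library, although the values there were 1.07 and 1.01. Over 20 alternative settings the adjusted p in PC3 cells ranged from 0.00462 to 0.163, with a call in 14 of them, and in A549 cells from 0.000232 to 0.181, with a call in 18. MRPS6 also shares exon sequence with SLC5A3, an inositol transporter gene on the same strand. SLC5A3 rose from 79.5, 75.8 and 86.2 CPM to 959.1, 304.2 and 237.9 CPM in PC3 cells (2.64 ± 0.44, SE, adjusted p = 0.00364), highest in the same first hypoxic library. It rose by 0.96 in A549 cells (adjusted p = 0.00434) and was not called in HCT116 (-0.11) or T47D cells (-0.06). The part of shared exons in the MRPS6 counts was not tested.

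MRPS18A, MRPS30 and MRPS36, whose place departs from their symbol, are given one by one. MRPS18A, in the large subunit, was called in no line. MRPS30, also in the large subunit, was downregulated in A549 cells only (-0.46 ± 0.12, SE, adjusted p = 0.00932), with 42.6, 43.3 and 41.9 CPM in normoxia and 26.6, 31.8 and 34.4 CPM in hypoxia, and had -0.20, -0.19 and -0.02 in HCT116, PC3 and T47D cells. MRPS36, of the dehydrogenase complex, was downregulated in HCT116 (-1.34) and PC3 cells (-0.47). In T47D cells (-0.75) it was not called in the fit without a replicate block, but it was with DESeq2 and with the block. After correction for GC content and transcript length, MRPS36 had 0.41 and 0.21 in these lines and was called upregulated in A549 cells (0.43), so no direction can be given for it.

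**Figure D4:**
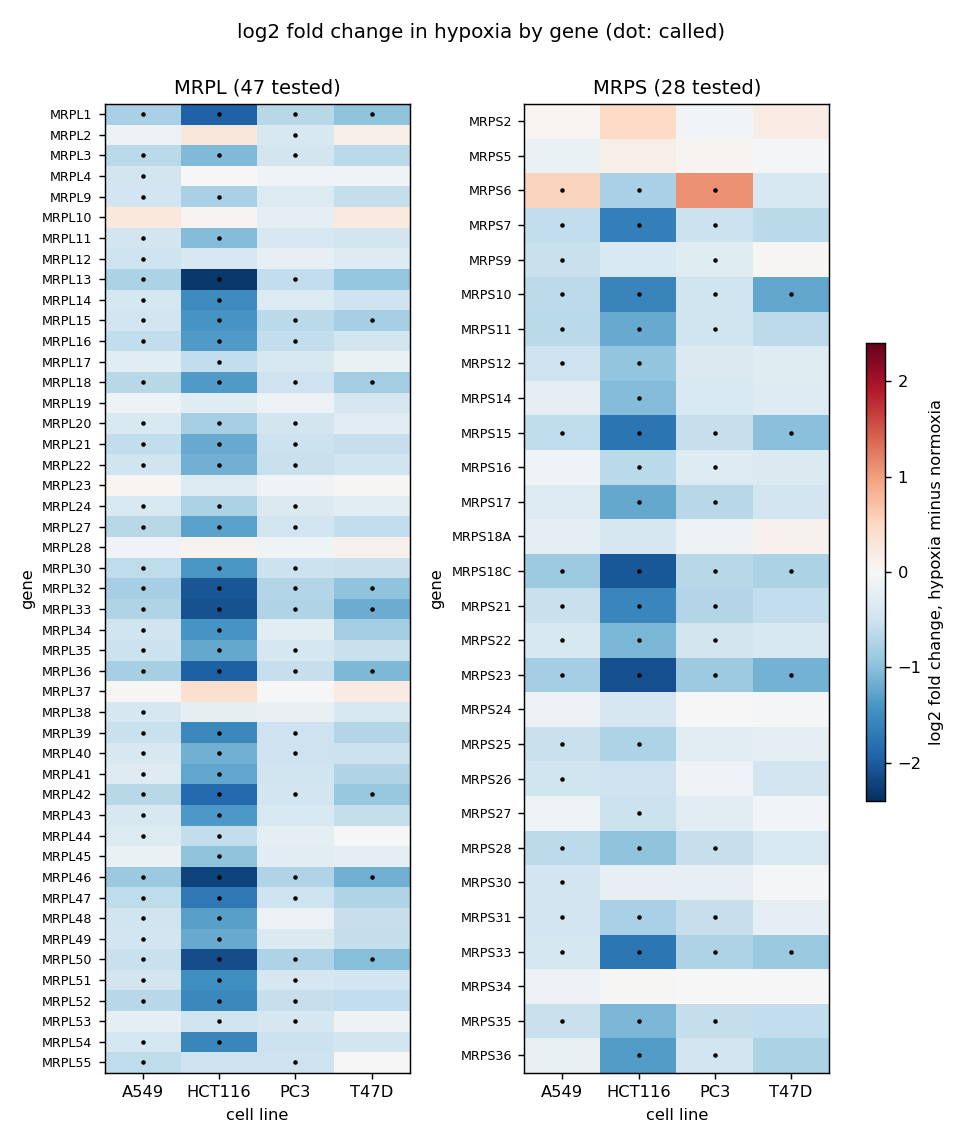
Log2 fold change in hypoxia (color) of 47 MRPL genes (left) and 28 MRPS genes (right), 1 row a gene and 1 column a cell line, with a dot where the gene was called. The HCT116 column is the darkest blue in both subunits, 14 genes carry a dot in all 4 columns, and the red cells with a dot are MRPS6 in A549 and PC3 cells.

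The response differed in size between lines for part of the genes. In 1 fit of all 24 libraries, 21 of the 75 genes (14 MRPL and 7 MRPS) passed the interaction test of cell line and hypoxia, against 18.3% of all genes tested. All 21 had their lowest log2 fold change in HCT116 cells, as did 61 of the 75 genes. The share of all genes with their lowest value there is not given. Over all genes the lower quartile was also lowest in HCT116 cells, at -0.77 against -0.33 in A549, -0.31 in PC3 and -0.41 in T47D cells. The smallest p belonged to MRPS6, MRPL42 and MRPL13. MRPL42, found only in mitochondria, had -0.66, -1.86, -0.45 and -0.91 in A549, HCT116, PC3 and T47D cells, and its level in HCT116 cells went from 335.1, 492.8 and 234.0 CPM to 111.8, 90.2 and 90.4 CPM. The number that passed rested on a few libraries, being 3 without normoxic replicate 2 of HCT116 and 6 and 5 without its hypoxic replicates 2 and 3. It was 11 and 12 without hypoxic replicates 2 and 3 of A549, and 13 and 32 without normoxic replicates 1 and 3 of PC3. It was 32 with DESeq2, 13 with the replicate block and 11 after correction for GC content and transcript length. With replicate number 1 left out of every group it was 0, and with number 2 left out it was also 0. Shares of all genes are not given for these alternatives, so their numbers cannot be set against all genes.

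The order of the genes was similar in the 4 lines. Across the 75 genes, Pearson's r between the log2 fold changes of 2 lines was highest for HCT116 and T47D (0.91) and lowest for PC3 and T47D (0.59), or 0.74 for the latter pair without MRPS6. Genes are not independent replicates, and changes in all lines also followed the base composition of the transcripts.

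GC content moved with the change in hypoxia. Across the 75 genes, Pearson's r between log2 fold change and the GC content of the canonical transcript was 0.29 in A549, 0.49 in HCT116, 0.36 in PC3 and 0.45 in T47D cells, and across all genes tested it was 0.25, 0.35, 0.32 and 0.26. The 14 genes downregulated in all 4 lines had a median GC content of 42.4% and the 10 genes called in none had 57.3%, against 48% for the 75 genes and 48.6% for all genes tested in the 4 lines. Canonical transcripts of the 75 genes were shorter, with a median of 1224 bases against 3330 bases. Within each of 4 bands of GC content the median of these genes was below that of other genes in each line. The bands were not matched for transcript length. Below 42% GC in HCT116 cells it was -1.57 for 18 of these genes and -0.59 for the other genes, and at 54% or more it was -0.41 for 23 genes and 0.36 for the others.

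Correction for GC content and transcript length left fewer calls and smaller medians. Downregulated genes then numbered 37 in A549, 35 in HCT116, 18 in PC3 and 8 in T47D cells (16.6%, 20.3%, 12.5% and 6.16% of all genes). All 37 and all 35 were among those called without it, as were 15 of the 18 and 6 of the 8. Upregulated were 3 genes in A549 cells (MRPL10, MRPS6 and MRPS36), 2 in HCT116 cells (MRPL2 and MRPL37), MRPS6 alone in PC3 cells and none in T47D cells (15.0%, 19.1%, 11.8% and 6.86% of all genes). The MRPL median was then -0.31, -0.41, -0.21 and -0.31, and the MRPS median -0.24, -0.25, -0.12 and -0.12, so that the fitted MRPL minus MRPS difference in HCT116 cells went from -0.27 to -0.16, and from -0.24 to -1.19e-05 with genes placed by structure. In the other lines the difference by symbol grew, from 0.0031 to -0.07 in A549, -0.03 to -0.09 in PC3 and -0.16 to -0.19 in T47D cells. With genes placed by structure it shrank in T47D cells instead, from -0.14 to -0.06. By structure it went from 0.015 to -0.04 in A549 and from 0.0064 to -0.02 in PC3 cells. Medians of the 14 genes downregulated in all 4 lines went from -0.69, -1.95, -0.67 and -0.98 to -0.40, -0.94, -0.26 and -0.63, with 10, 12, 6 and 6 of them still downregulated. With the replicate block added, 43, 35, 19 and 19 genes were downregulated (19.7%, 24.4%, 13.5% and 13.7% of all genes). The decrease of MRPS23 was as large with the correction (-2.27 in HCT116 cells), whereas that of MRPL33 in the same cells went from -2.10 to -0.41 and was no longer called. MRPS6 in HCT116 cells went from -0.78 to 0.02. GC content and length were corrected together, so their parts cannot be told apart, and whether the relation arose in the cells or in the libraries was not tested.

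**Figure D5:**
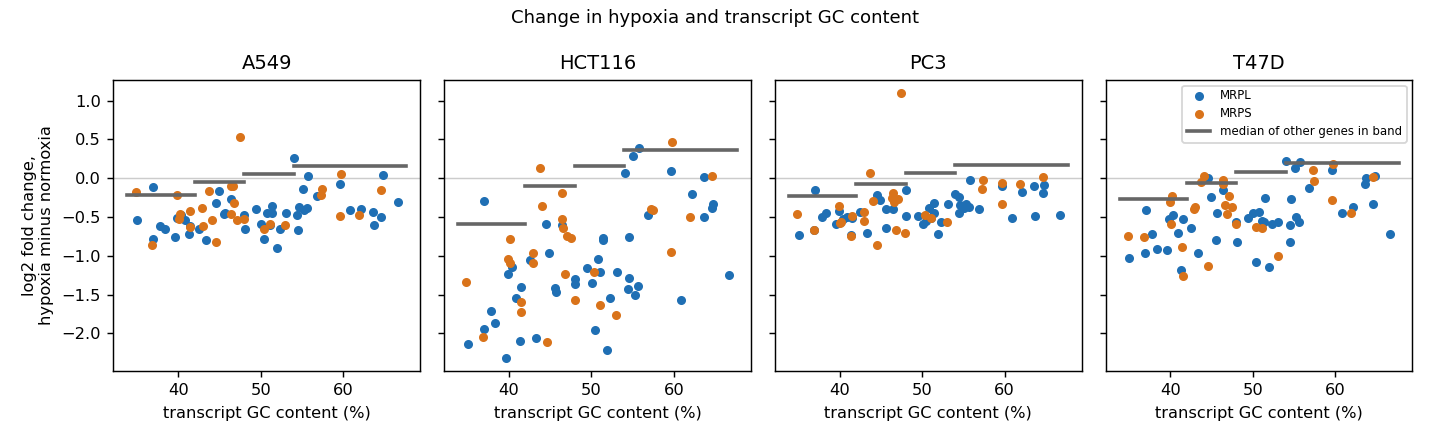
Log2 fold change in hypoxia (y axis) against GC content of the canonical transcript in percent (x axis) for 47 MRPL and 28 MRPS genes in each cell line, with gray bars for the median of all other genes in 4 bands of GC content. Most points lie below the gray bar of their band, which rises with GC content, and in HCT116 cells the points reach lowest at low GC content.

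Levels between genes were compared per kilobase of annotated exon in normoxia. MRPL12, homologous to bacterial L7/L12, was the highest of the large subunit at 219.7 CPM per kb as the mean over the 4 lines, with 234.6 ± 14.8 (SD, n = 3) in A549, 248.3 ± 12.01 in HCT116, 222.4 ± 21.4 in PC3 and 173.5 ± 12.7 in T47D cells. It was downregulated in A549 cells alone (-0.50), with -0.39, -0.19 and -0.33 in the others. MRPS34 was the highest of the small subunit at 110.2 CPM per kb, but by the canonical transcript MRPS7 (174.8 CPM per kb), MRPS24 (152.3) and MRPS15 (127.4) were above it (120.5). Exons of MRPS34 overlap EME2 on the other strand. MRPL46 (8.50 CPM per kb) and MRPS25 (3.71 CPM per kb) were the lowest with counts, but their annotated exons sum to 6402 and 18309 bases against 986 and 4572 bases of the canonical transcript, by which they had 55.2 and 14.8 CPM per kb, and exons of MRPS25 overlap NR2C2 on the other strand. By the canonical transcript MRPL42 (11.95 CPM per kb) and MRPS31 (13.5 CPM per kb) were the lowest. The median was 39.9 CPM per kb for MRPL and 27.5 CPM per kb for MRPS genes, or 82.0 and 52.8 CPM per kb by the canonical transcript.

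The rest of the mitochondrial translation apparatus was described by lists of genes. Of 7 ribosomal proteins with other symbols, 4 were downregulated in A549, HCT116 and PC3 cells and 2 in T47D cells, with medians of -0.50, -1.02, -0.37 and -0.63. ICT1, a peptidyl-tRNA hydrolase built into the large subunit, and PTCD3, a small-subunit protein, were downregulated in all 4 lines (ICT1 by -0.74, -1.81, -0.53 and -1.12). AURKAIP1 and GADD45GIP1 were called in none. Of 26 assembly factors 15, 11, 11 and 2 were downregulated in A549, HCT116, PC3 and T47D cells, among them FASTKD2 in all 4 (-0.69, -1.52, -0.65 and -0.74). Of 17 translation factors 10, 9, 6 and 2 were downregulated, and of 20 mitochondrial aminoacyl-tRNA synthetases and related enzymes 7, 6, 3 and 1. These shares of the synthetase list, 35%, 30%, 15% and 5%, were near those of all genes except in A549 cells, and the assembly factors in T47D cells, at 7.69%, were near theirs too. Upregulated were 1 assembly factor in A549 cells, 1 translation factor in HCT116 cells, and 2 and 1 of the synthetase list in HCT116 and T47D cells. After correction for GC content and transcript length, 5, 4, 3 and 1 of the proteins with other symbols were downregulated. Assembly factors then gave 16, 9, 11 and 1, translation factors 7, 6, 6 and 0, and the synthetase list 8, 6, 4 and 1. The shares of all genes were 16.6%, 20.3%, 12.5% and 6.16%. The median of translation factors went from -0.66 to -0.07 in HCT116 and from -0.32 to -0.09 in T47D cells.

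Genes outside mitochondrial translation were counted in the same way. Cytosolic ribosomal proteins numbered 6 downregulated of 81 tested in A549 cells, 52 of 80 in HCT116, 26 of 80 in PC3 and 4 of 80 in T47D cells, and 38 complex I subunits gave 13, 29, 11 and 6. The shares were 7.41%, 65%, 32.5% and 5% for the first list and 34.2%, 76.3%, 28.95% and 15.8% for complex I. Those of the 75 MRPL and MRPS genes were 73.3%, 76%, 57.3% and 18.7%, so the complex I share in HCT116 cells was near theirs. In HCT116 cells the median was -0.96 for cytosolic ribosomal proteins, -1.03 for complex I and -1.15 for the 75 genes. Those shares over all genes were 17.8%, 27.0%, 15.7% and 6.69%. The cytosolic share was thus below that of all genes in A549 cells and near it in T47D cells. In A549 cells 6 cytosolic ribosomal proteins were upregulated (17.6% of all genes), and HCT116 cells had 1 such gene and 1 complex I subunit (23.3% of all genes). After correction for GC content and transcript length the downregulated numbers were 2, 19, 9 and 2 for cytosolic ribosomal proteins and 7, 12, 4 and 2 for complex I. Of all genes, 16.6%, 20.3%, 12.5% and 6.16% were then downregulated. Upregulated with the correction were 17, 6, 0 and 1 cytosolic ribosomal proteins and 0, 5, 0 and 0 complex I subunits. Over all genes these shares were 15.0%, 19.1%, 11.8% and 6.86%. Of 12 regulators of mitochondrial gene expression, 11, 11, 11 and 12 were tested in A549, HCT116, PC3 and T47D cells. Of these 3, 3, 3 and 0 were downregulated and 0, 3, 1 and 1 upregulated. The downregulated share was 27.3% in each of the first 3 lines, which in HCT116 cells was near that of all genes. Over all genes 17.6%, 23.3%, 16.6% and 6.55% were upregulated. After the correction 4, 2, 4 and 1 regulators were downregulated and 0, 1, 0 and 1 upregulated. TFB2M, which assists mitochondrial transcription, was downregulated in A549 (-0.78), HCT116 (-1.85) and PC3 cells (-0.85). TFAM, which packages and transcribes mitochondrial DNA, had -0.53, -1.25 and -0.47 in the same lines, all called, and -0.55 in T47D cells, not called. GABPB1, a subunit of GABP, was downregulated in the same 3 lines (-0.60, -0.80 and -0.65), while GABPA, the subunit that binds DNA, was called in none. MYC, a driver of ribosome production, was upregulated in HCT116 (1.08) and T47D cells (1.01). Their part in the changes of the MRPL and MRPS genes was not tested.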

How the data were processed

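Raw counts of fragments per gene symbol were used as deposited. Per the study's methods, the authors made these counts by trimming reads with Trim Galore 0.3.3, aligning them to GRCh37 with HISAT2 2.05, excluding fragments without a unique position with Picard 2.0.1 and counting with HTSeq 0.5.4p3 in intersection-strict mode on UCSC genes. The strand setting of counting is not given in the sources used here, and the exons of 7 of the genes overlap a gene on the other strand (MRPL47, MRPL49, MRPS7, MRPS18A, MRPS18C, MRPS25 and MRPS34). Counts of 35 genes could also be lowered by reads shared with an annotated pseudogene. Libraries were prepared from polyadenylated RNA with the NEBNext Ultra II Directional kit, per the labels.

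Oxygen states were compared within each line with edgeR 4.0.16 (R 4.3.3) from 3 hypoxic and 3 normoxic libraries, by filterByExpr, TMM and the quasi-likelihood test, with p adjusted by Benjamini-Hochberg over the 13897, 13614, 13466 and 14085 genes tested in A549, HCT116, PC3 and T47D cells. SE was derived from the log2 fold change and its F statistic. Differences between lines were tested with the 3 interaction terms in 1 fit of 24 libraries. DESeq2 1.42.0 and the other alternatives are given in the closing section. The correction for GC content and length used splines with 5 degrees of freedom on the canonical transcript, for which GENCODE gene models for GRCh37 matched 79.7% of symbols and RefSeq synonyms a further 6.33%. The scripts were tested on simulated data. For a gene that the counting could detect, a count of 0 allows up to 3 counts, or 0.0454 to 0.128 CPM, counting error only.

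The genes and lists were chosen with earlier results of these data known. Genes were named if upregulated in any line, among the 3 MRPL or 2 MRPS genes with the largest decrease in a line, downregulated in all 4 lines, called in none, among the 3 smallest interaction p, highest or lowest per kb in a subunit, or placed in the ribosome against their symbol. The other members were named to account for each, after their values were seen. Replicates with the same number deviated together in T47D cells, where the correlations of deviations were 0.15, 0.325 and 0.302. No label says what a number shares, and in each other line at least 1 pair was under 0.1.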

Additional observations from a re-analysis of the deposited data

Results flagged for a closer look

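The change in hypoxia differed between cell lines, by the interaction test in edgeR with Benjamini-Hochberg adjustment, for 21 of the 75 genes, and 13 of the genes named above are among them. These were MRPS6 (adjusted p = 0.00751), MRPL42 (0.00761), MRPL13 (0.0103), MRPS18C (0.0121), MRPS10 (0.0168), MRPL50 (0.0181), MRPL32 (0.0224), MRPL46 (0.0241), MRPL36 (0.0302), MRPL1 (0.0308), MRPL33 (0.0416), MRPS15 (0.0422) and MRPS36 (0.0472). Of all genes tested, 18.3% passed this test. Each had its lowest log2 fold change in HCT116 cells, where the lower quartile of all genes was also lowest. HCT116 cells alone were in McCoy's medium, so line and medium cannot be told apart there. Groups of 3 libraries are too small for the test of single outlying libraries, so none was made.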

How the results depend on the processing

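Directions of both subunit medians were kept under each alternative run. The lowest count of these genes in a library was 307. Scaling to total counts moved the median of all genes to -0.13 in A549 and -0.12 in T47D cells, and upregulated genes from 49.8% to 33.9% and from 49.5% to 32.1% of all calls. It gave 30 downregulated genes in T47D cells, where the number over all genes rose from 942 to 1412. The medians with it were -0.58 (MRPS, A549) and -0.47 (MRPL, PC3). One fit of all 24 libraries gave 25, 3 and 24 downregulated genes in A549, PC3 and T47D cells, 0 and 2 upregulated in A549 and HCT116 cells, and medians of -0.84 (MRPS, HCT116), -0.38 (MRPL, PC3) and -0.34 (MRPS, PC3). A test against a fold change of 1.2 (glmTreat) gave 28, 8 and 8 downregulated in A549, PC3 and T47D cells and 0 upregulated in PC3 cells. A fold change over 1.5 gave 22 and 13 downregulated in A549 and PC3 cells and 0 upregulated in A549 cells. In HCT116 cells 1 gene was upregulated with DESeq2, with RLE size factors, without the filter, with a mean count of at least 50 and with the replicate block, and in PC3 cells 0 were with DESeq2. Genes that differed between lines numbered 32 with DESeq2, 13 with the replicate block and 11 with the correction for GC content and transcript length. Shares of all genes are not given for the single fit, glmTreat, a fold change over 1.5 or the replicate block without the correction. Nor are they given for these numbers of genes that differed between lines. Those counts therefore cannot be set against all genes. The cause was not tested.

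The replicate block gave 52, 59, 44 and 19 downregulated genes in A549, HCT116, PC3 and T47D cells. In T47D cells, where samples of the same number deviated together, it added MRPL3, MRPL34, MRPL39, MRPL41 and MRPS36 and changed no other call. By the labels samples share only a number in every line, although each PC3 sample correlated best with its own number. The lowest such correlations were 0.0826, 0.0706 and 0.0799 in A549, HCT116 and PC3 cells. With correction for GC content and transcript length, downregulated genes numbered 35, 18 and 8 in HCT116, PC3 and T47D cells, or 35 and 19 in HCT116 and PC3 cells with the block added. Upregulated were 3 in A549 cells by either, and in HCT116 cells 2, or 4 with the block. MRPS medians were -0.24, -0.25 and -0.12 in A549, HCT116 and PC3 cells by either, and MRPL medians -0.41 in HCT116 (-0.38 with the block) and -0.21 in PC3 cells. The sign reversed for MRPS6 in HCT116 cells (0.021, or 0.019 with the block) and for MRPS36 in A549 (0.43, or 0.44 with the block), HCT116 (0.41, or 0.42) and PC3 cells (0.21 by either).

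Leaving out 1 library or 1 replicate number gave 16 to 59 downregulated genes in A549, 47 to 58 in HCT116, 0 to 55 in PC3 and 0 to 57 in T47D cells, and 1 to 1, 0 to 1, 0 to 1 and 0 to 0 upregulated. MRPL medians ranged from -0.60 to -0.36, -1.40 to -0.93, -0.56 to -0.25 and -0.89 to -0.30, and MRPS medians from -0.54 to -0.36, -1.05 to -0.67, -0.51 to -0.25 and -0.70 to -0.20. Genes that differed between lines numbered 0 to 32, being 0 without replicate number 1 and 0 without number 2. Without a replicate number, the extremes were 0 downregulated genes in PC3 and T47D cells without number 1 and 16 in A549 cells without number 2. Shares of all genes without a replicate number are not given. For single named genes, 1137 values under other settings kept their direction and call, 105 lost and 27 gained a call, 47 values without a test moved and 8 changed sign.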
